A study of Mus musculus with 9 samples.

Results

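Cytokine mRNA decay regulators are proteins that bind the 3′ untranslated region (3′ UTR) of inflammatory transcripts and set how long these last. The 10 genes described here were chosen by name for that role: Zfp36, Zfp36l1, Zfp36l2, Zc3h12a, Zc3h12c, Rc3h1, Rc3h2, Elavl1, Hnrnpd and Khsrp. All 10 were found among the 54059 genes of the deposited table. All 10 also passed the filter for testing, a mean of at least 1 FPKM (fragments per kilobase of transcript, scaled to the size of the library) over the 9 libraries, which left 11450 genes.

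The cells were adherent peritoneal macrophages of C57BL/6 mice, given as 8 weeks old by the labels and 8 to 10 by the study's methods, collected by lavage 3 days after 1 ml starch broth had been injected into the abdomen. The 3 groups of 3 libraries were sequenced. The wild-type cells received IMQ (imiquimod, an agonist of the RNA sensor TLR7) at 10 µg/ml for 4 h. M-Shp2-/- cells, labelled SHP2lyz2-/-, received IMQ for 4 h and came from mice that combine a floxed Shp2 gene (Shp2 fl/fl) with Lyz2-cre, which deletes it in monocytes, macrophages and granulocytes. The SHP099 group held wild-type cells given SHP099, an allosteric inhibitor of the phosphatase SHP2, at 10 µM for 2 h before IMQ. The labels name SHP099 but not IMQ, and the doses and times come from the study's text, which gives the IMQ dose for the SHP099 experiment and not for the M-Shp2-/- libraries. No library without IMQ was analysed here. The labels do not say whether the libraries of a group came from separate animals, so p-values measure only the spread between these libraries, which may be technical. Between 39842762 and 50980539 reads per library lay behind the FPKM values.

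Many cytokine transcripts carry AU-rich elements or short stem-loops in the 3′ UTR. Tristetraprolin (Zfp36) and its relatives bind AU-rich elements and recruit the CCR4-NOT complex, which shortens the poly(A) tail, whereas regnases and roquins recognise stem-loops. HuR (Elavl1) binds AU-rich elements as well and usually stabilises the transcript, and in macrophages stimulated through Toll-like receptors this balance limits how much TNF, IL-6 and other mediators are made.

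The AU-rich nonamer TTATTTATT, the preferred site of the tristetraprolin family, was searched on the transcript strand in every annotated 3′ UTR. It contains the pentamer ATTTA, and 908 of the 10019 tested genes with an annotated 3′ UTR held it (9.06%). Among the 10 regulators 6 held it, namely the 3 Zfp36 genes, Rc3h1, Rc3h2 and Elavl1. Zc3h12a, Zc3h12c, Hnrnpd and Khsrp did not hold it. Of the 29 tested transcripts on a list of known targets, 12 held it. These shares were not adjusted for length. The median 3′ UTR of tested genes was 1166 bases long, while those of the 6 regulators ran from 774 (Zfp36) to 7181 bases (Rc3h1). The sites below are given with the nonamers in capitals because they show which regulators carry in their own 3′ UTR the element that the tristetraprolin family reads. Targets are shown beside them for comparison.
Zfp36, chr7:28376951-28376979, minus strand: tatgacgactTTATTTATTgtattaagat
Zfp36l1, chr12:80108167-80108195, minus strand: aactgttggaTTATTTATTttagaaattc
Zfp36l2, chr17:84184914-84184942, minus strand: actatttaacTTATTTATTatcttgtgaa
Rc3h1, chr1:160970043-160970071, plus strand: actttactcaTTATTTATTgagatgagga
Rc3h2, chr2:37373287-37373315, minus strand: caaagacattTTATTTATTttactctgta
Elavl1, chr8:4285782-4285810, minus strand: aaaaTTATTTATTTATTTATTTATTttta
Tnf, chr17:35199678-35199707, minus strand: TTATTTATTATTTATTTATTATTTATTTAT
Cxcl2, chr5:90905338-90905366, plus strand: ctatgtatTTATTTATTTATTaattccat
Ptgs2, chr1:150105790-150105818, plus strand: ctgaccatatTTATTTATTtatgtgaaga
Fos, chr12:85477103-85477131, plus strand: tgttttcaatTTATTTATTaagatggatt
All sites lie in the 3′ UTR on build GRCm38 and were read from the transcripts of GENCODE M21. The Elavl1 window shown holds 4 overlapping nonamers, and its 3′ UTR of 4218 bases holds 8 in all. The Tnf window is the start of a run of 5 nonamers. The Zfp36, Zfp36l1, Zfp36l2, Rc3h1 and Rc3h2 3′ UTRs hold 1 nonamer each. The pentamer was present 14 times in the 4062 bases of the Zc3h12c 3′ UTR and 3 times in the 856 bases of that of Zc3h12a. A match is a description of these letters and says nothing of binding in these cells.

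Ptpn11, the gene of SHP2, was measured at 45.8, 44.0 and 40.0 FPKM in the wild-type libraries, at 18.6, 17.8 and 18.9 FPKM in the M-Shp2-/- libraries, and at 43.0, 42.1 and 39.6 FPKM in the SHP099 libraries. The M-Shp2-/- libraries were below all others. Ptpn11 fell in M-Shp2-/- cells, where the log2 fold change was -1.19 (adjusted p = 0.0168, limma). In 17 alternative fits this log2 fold change lay between -1.36 and -1.04, with adjusted p between 0.00186 and 0.196 by limma. Limma called it in 12 of these 17, and the losses included the fits without wild-type replicate 1 (0.105) or 2 (0.125) and without M-Shp2-/- replicate 1 (0.196) or 2 (0.151). In SHP099 cells its log2 fold change was -0.05, with a 95% confidence interval of -0.26 to 0.15 (adjusted p = 0.729, limma).

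Libraries differed beyond their groups. M-Shp2-/- replicate 3 correlated with the other M-Shp2-/- libraries at 0.967 and 0.954 (Pearson, log2 values across genes, which are not independent replicates), whereas replicates 1 and 2 correlated at 0.992. Wild-type replicate 3 correlated with replicates 1 and 2 at 0.976 and 0.974. The 8 macrophage markers were led by Lyz2 and summed to 10476, 13458 and 11219 FPKM in wild-type, 7652, 7535 and 8427 FPKM in M-Shp2-/- and 11783, 13011 and 13734 FPKM in SHP099 libraries, so macrophage genes were abundant in each library. Lyz2, whose locus carries cre in M-Shp2-/- mice, made up most of each sum. It was at 4743 to 5407 FPKM in M-Shp2-/- and at 7440 to 10228 FPKM in wild-type libraries. The 10 mesothelial and stromal markers were led by Col1a1 and summed to 66.3, 310 and 41.4 FPKM in wild-type, 139, 52.8 and 595 FPKM in M-Shp2-/- and 367, 142 and 103 FPKM in SHP099 libraries. They were highest in M-Shp2-/- replicate 3, and 6 of the 10 passed the filter for testing.

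Other cells were present at low levels. The 6 B cell markers, led by Ighm, summed to between 11.5 FPKM in wild-type replicate 1 and 178 FPKM in M-Shp2-/- replicate 3. The 7 neutrophil markers, led by S100a8, summed to between 45.8 and 108 FPKM, with the defining markers Cxcr2 and Ly6g under 0.1 FPKM in every library. The 8 T and NK cell markers reached at most 6.5 FPKM in sum, the 5 mast cell markers 6.10 FPKM, the 5 dendritic cell markers 7.40 FPKM, the 4 eosinophil markers 0.93 FPKM and the 4 markers of resident peritoneal macrophages 10.4 FPKM. Summed mast cell markers, led by Kit, were at 4.76 to 6.10 FPKM in wild-type and at most 0.97 FPKM in SHP099 libraries. Dendritic cell markers, led by Ccr7, were at 3.78 to 6.14 FPKM in wild-type and at most 1.5 FPKM in SHP099 libraries. Ccr7 itself had a log2 fold change of -1.52 in SHP099 cells (adjusted p = 0.0192, limma). Eosinophil markers, led by Siglecf, were at 0.383 to 0.93 FPKM and at most 0.0368 FPKM in the same groups. Of these 3 lists only Kit, Ccr7 and no eosinophil marker passed the filter for testing. A lower sum can therefore follow a single gene and is not shown to be a change of a cell type. The other marker sums overlapped between both groups. The part of these cells in the SHP099 changes below was not tested. In this bulk RNA, fewer cells of a type and less RNA per cell cannot be told apart.

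Zc3h12a was the most abundant regulator in each group, and Hnrnpd came next. FPKM is per length, here the mean length of a gene's annotated transcripts, so the order of genes depends on that choice. For Hnrnpd this mean was 1552 bases, while its longest annotated 3′ UTR alone held 5429 bases. In wild-type cells the means ± SD (n = 3) were 227 ± 14.6 FPKM for Zc3h12a, 96.1 ± 5.74 FPKM for Hnrnpd, 48.4 ± 23.6 FPKM for Zfp36 and 46.4 ± 7.17 FPKM for Zfp36l2. Below them came Zc3h12c (32.8 ± 4.71 FPKM), Khsrp (28.9 ± 4.04 FPKM), Elavl1 (19.7 ± 2.43 FPKM), Rc3h1 (17.6 ± 0.108 FPKM), Rc3h2 (11.5 ± 0.342 FPKM) and Zfp36l1 (9.47 ± 5.65 FPKM). In this order the libraries of Zfp36 and Zfp36l2 overlapped, as did those of Zc3h12c and Khsrp, of Elavl1 and Rc3h1, and of Rc3h2 and Zfp36l1. Zfp36 stood in the third place in wild-type cells, in the sixth in M-Shp2-/- cells (27.5 ± 5.79 FPKM) and in the fifth in SHP099 cells (35.4 ± 8.59 FPKM). Zc3h12c stood in the fifth place in wild-type cells and in the fourth in both other groups (42.1 ± 2.14 and 49.7 ± 4.15 FPKM). Among neighbours in the order of M-Shp2-/- cells, only Khsrp and Zfp36 overlapped, and Rc3h2 and Zfp36l1. In that of SHP099 cells, Zfp36l2 and Zc3h12c overlapped, as did Zfp36 and Khsrp, and Elavl1 and Rc3h1.

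**Figure D1:**
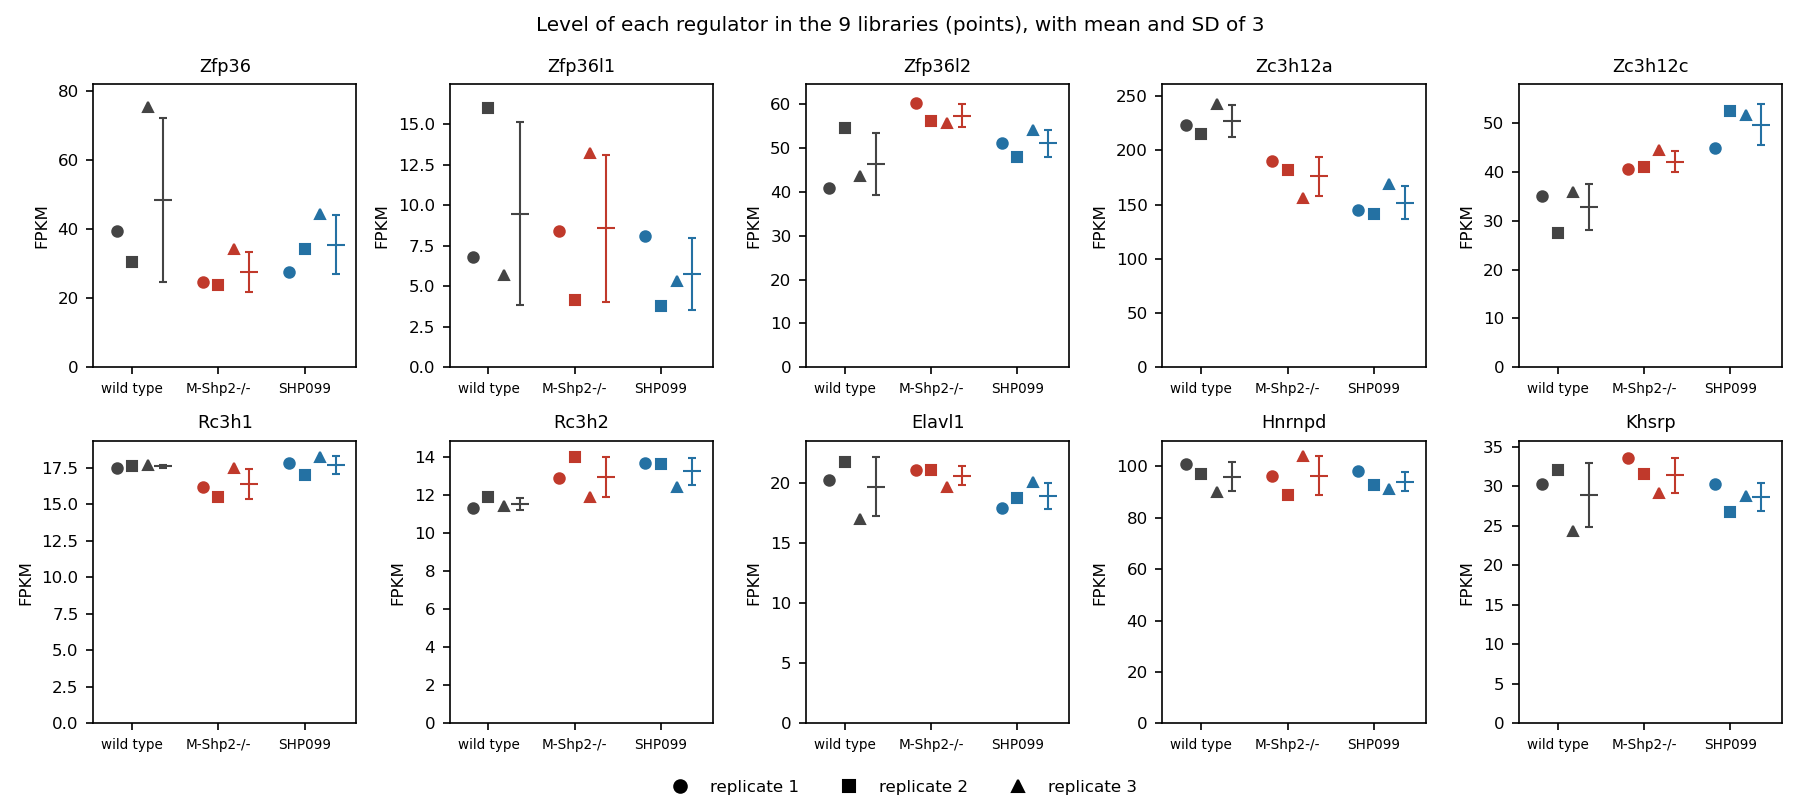
FPKM (vertical axes, each from 0) of the 10 regulators in the wild-type, M-Shp2-/- and SHP099 libraries, 1 panel per gene, with each library as a point and the mean and SD of 3 libraries beside it. Zc3h12a is highest in wild-type and Zc3h12c highest in SHP099 libraries, while Rc3h1, Hnrnpd and Elavl1 overlap between all groups.

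The 3 comparisons were made with limma on log2(FPKM + 1), on which scale the changes of low genes are understated. A gene was called at a Benjamini-Hochberg adjusted p of at most 0.05 over all 11450 genes. In M-Shp2-/- against wild type, which asks what loss of SHP2 does, limma called 0 of the 10 regulators, and 3 had an unadjusted p under 0.05. Of all genes, 0 were called higher (0%) and 10 lower (0.0873%), and 1204 had an unadjusted p under 0.05. Libraries of both groups did not overlap for 2 regulators that were higher (16% of all genes) and 1 that was lower (3.07% of all genes). The median log2 fold change was 0.04 over the regulators and 0.15 over all genes tested.

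In SHP099 against wild type, which asks what inhibition of SHP2 does, 1 regulator was called higher (4.55% of all genes) and 1 lower (2.41% of all genes). These were Zc3h12c and Zc3h12a. Libraries did not overlap for 2 regulators that were higher (27.9% of all genes) and 1 that was lower (6.77% of all genes). With 10 genes these counts are near the background shares. The median log2 fold change was -0.02 over the regulators and 0.13 over all genes tested. Of all genes, 521 were called higher and 276 lower, and this count depended on single libraries. It was 21 and 69 without SHP099 replicate 1, 10 and 37 without replicate 2, 42 and 74 without replicate 3, 133 and 151 without wild-type replicate 1, 226 and 173 without replicate 2, and 807 and 466 without replicate 3. Median-of-ratios scaling turned the balance to 172 higher and 339 lower, and quantile normalization gave 344 and 356. At the stricter thresholds of the study's methods, which asked for an adjusted p no larger than 0.005 and a log2 fold change of 1 or more in size, limma called none of the 10 regulators in any of the 3 comparisons. Both comparisons use the same wild-type libraries and are therefore not independent of each other.

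**Figure D2:**
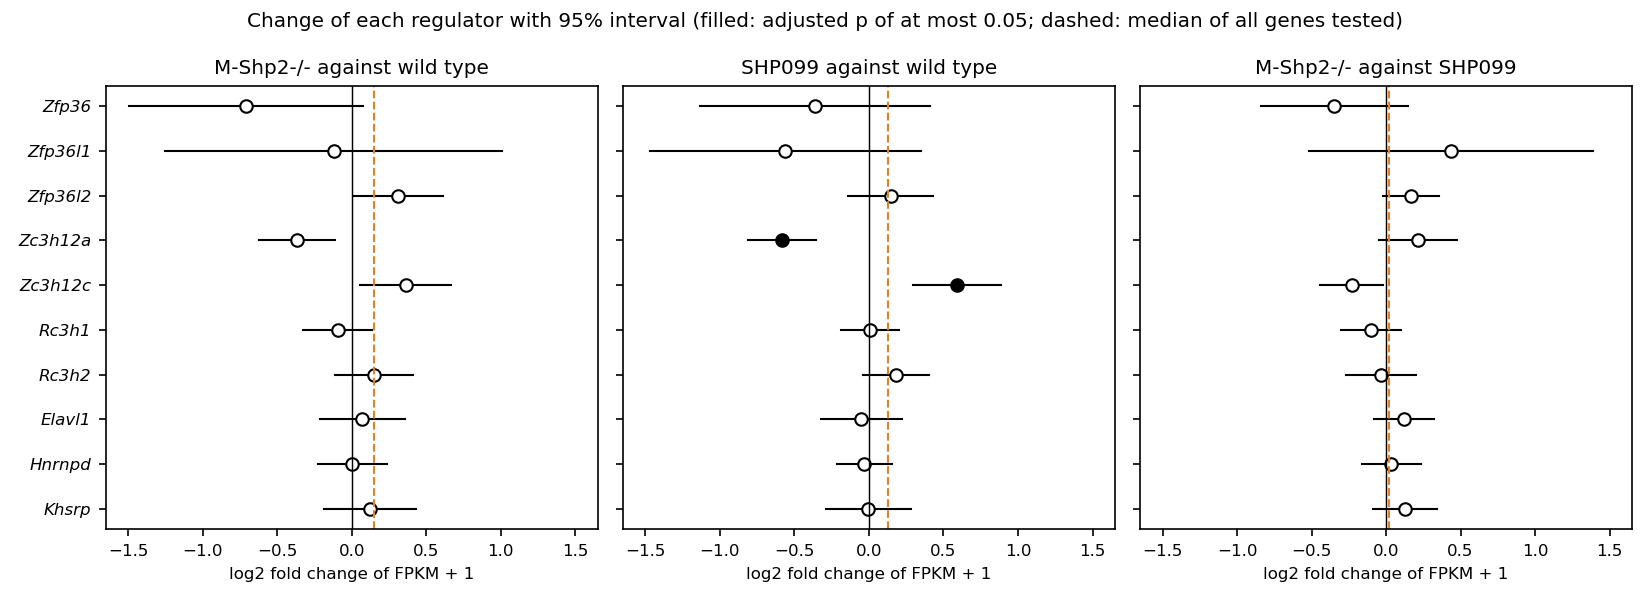
Log2 fold change of FPKM + 1 (horizontal axis) of the 10 regulators with its 95% confidence interval, 1 panel per comparison. Filled points mark an adjusted p of at most 0.05 and the dashed line the median of all genes tested. Filled points are seen only for Zc3h12a (-0.58) and Zc3h12c (0.59) in SHP099 against wild type.

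The 2 regnases moved in opposite directions in SHP099 cells. Zc3h12a encodes regnase-1, an endoribonuclease that cuts stem-loops in transcripts such as that of Il6, and Zc3h12c encodes regnase-3, a relative with the same kind of nuclease domain. Zc3h12a (chr4:125118423-125127840, minus strand) was measured at 223, 215 and 243 FPKM in wild-type, at 190, 182 and 156 FPKM in M-Shp2-/- and at 145, 141 and 169 FPKM in SHP099 libraries. Every library of the M-Shp2-/- and SHP099 groups was below every wild-type library, and both of these groups overlapped each other. Zc3h12a fell in SHP099 cells to 0.667-fold, a log2 fold change of -0.58 (SE 0.10, adjusted p = 0.0228, limma). In M-Shp2-/- cells the log2 fold change was -0.37, with a 95% confidence interval of -0.62 to -0.11 and an adjusted p of 0.454 by limma. Between 9598 and 18711 reads lay behind each value.

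Zc3h12c (chr9:52111344-52168572, minus strand) was measured at 35.0, 27.4 and 36 FPKM in wild-type, at 40.7, 41.1 and 44.6 FPKM in M-Shp2-/- and at 45, 52.5 and 51.7 FPKM in SHP099 libraries. The 3 groups did not overlap, with wild type lowest and SHP099 highest. Zc3h12c rose in SHP099 cells by 1.51-fold, a log2 fold change of 0.59 (SE 0.13, adjusted p = 0.0400, limma). In M-Shp2-/- cells the log2 fold change was 0.36, with a 95% confidence interval of 0.06 to 0.66 and an adjusted p of 0.465 by limma.

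Both calls rest on few libraries. Zc3h12a kept its direction in each of the 17 alternative fits of SHP099 against wild type, and limma called it in 13 of them, with adjusted p between 0.0195 and 0.125. The call was lost without a filter on low FPKM (adjusted p = 0.0767, limma) and without wild-type replicate 1 (0.0570), SHP099 replicate 1 (0.107) or SHP099 replicate 2 (0.125). Zc3h12c also kept its direction in each of the 17 fits, and limma called it in 7 of them, with adjusted p between 0.0267 and 0.197. That call was lost, among others, under median-of-ratios scaling, quantile normalization, no filter, no trend in the prior variance, and without wild-type replicate 1 (adjusted p = 0.0740, limma), wild-type replicate 2 (0.0685), SHP099 replicate 1 (0.107), SHP099 replicate 2 (0.178) or SHP099 replicate 3 (0.114). Median-of-ratios scaling lowered the median of all genes by 0.13 (log2) in this comparison and gave -0.73 for Zc3h12a and 0.44 for Zc3h12c.

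Since both genes moved apart, their ratio was computed after their values had been seen, and it is given without a test. The ratio of Zc3h12a to Zc3h12c FPKM was 6.38, 7.84 and 6.76 in wild-type, 4.67, 4.43 and 3.50 in M-Shp2-/- and 3.22, 2.69 and 3.27 in SHP099 libraries. No group overlapped another. A scaling of whole libraries does not alter this ratio. The sum of both FPKM was 258, 242 and 279 in wild-type, 231, 223 and 201 in M-Shp2-/- and 190, 194 and 221 in SHP099 libraries, and Zc3h12a made up the larger share of it in each library. The other regnase genes were low, at 0.02 to 0.13 FPKM for Zc3h12b and 0.24 to 0.74 FPKM for Zc3h12d.

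**Figure D3:**
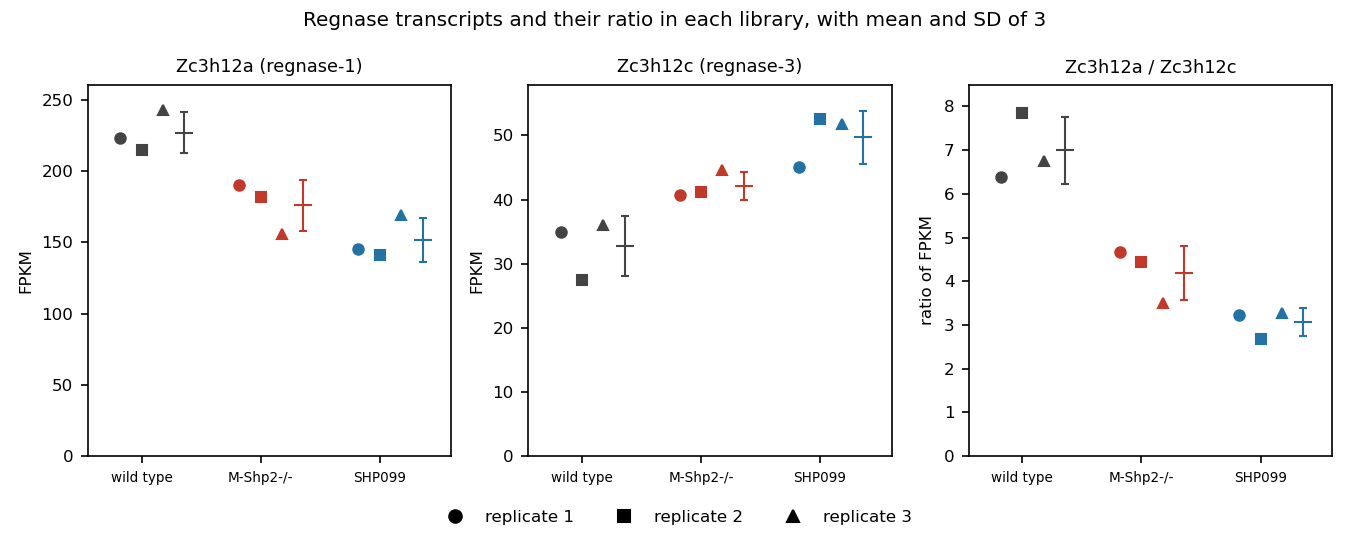
FPKM of Zc3h12a, FPKM of Zc3h12c and the ratio of both (vertical axes, each from 0) in each library, with the mean and SD of 3 libraries beside the points. The ratio is 6.38 to 7.84 in wild-type, 3.50 to 4.67 in M-Shp2-/- and 2.69 to 3.27 in SHP099 libraries.

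Of the Zfp36 family, none was called by limma in any comparison. Zfp36, which is itself induced by inflammatory stimuli, was measured at 39.4, 30.6 and 75.3 FPKM in wild-type, at 24.6, 23.7 and 34.1 FPKM in M-Shp2-/- and at 27.5, 34.3 and 44.5 FPKM in SHP099 libraries. Wild-type replicate 3 was highest, and all groups overlapped. Its log2 fold change was -0.71 in M-Shp2-/- cells, with a 95% confidence interval of -1.50 to 0.07 and an adjusted p of 0.478 by limma. In SHP099 cells it was -0.36 (-1.13 to 0.41, adjusted p = 0.527, limma). Tnf, a known target of tristetraprolin, was also highest in wild-type replicate 3. It was measured at 4216, 2375 and 6247 FPKM in wild-type, at 2573, 2733 and 3709 FPKM in M-Shp2-/- and at 3724, 3513 and 4768 FPKM in SHP099 libraries. Replicate 3 was the highest library of each group for both genes. The part of the Zfp36 level in that of Tnf was not tested.

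Zfp36l1 was measured at 6.78, 16 and 5.68 FPKM in wild-type, at 8.43, 4.12 and 13.2 FPKM in M-Shp2-/- and at 8.13, 3.76 and 5.32 FPKM in SHP099 libraries. It was highest in wild-type replicate 2, M-Shp2-/- replicate 3 and SHP099 replicate 1 of their groups, and all groups overlapped. Those libraries were also the highest of their groups in the mesothelial and stromal markers, and the part of these cells in the Zfp36l1 level was not tested. The log2 fold change of Zfp36l1 was -0.12 in M-Shp2-/- cells (95% confidence interval -1.25 to 1.01) and -0.56 in SHP099 cells (-1.47 to 0.35), with adjusted p of 0.903 and 0.404 by limma. Between 216 and 1172 reads lay behind each Zfp36l1 value, the fewest of the 10 regulators.

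**Figure D4:**
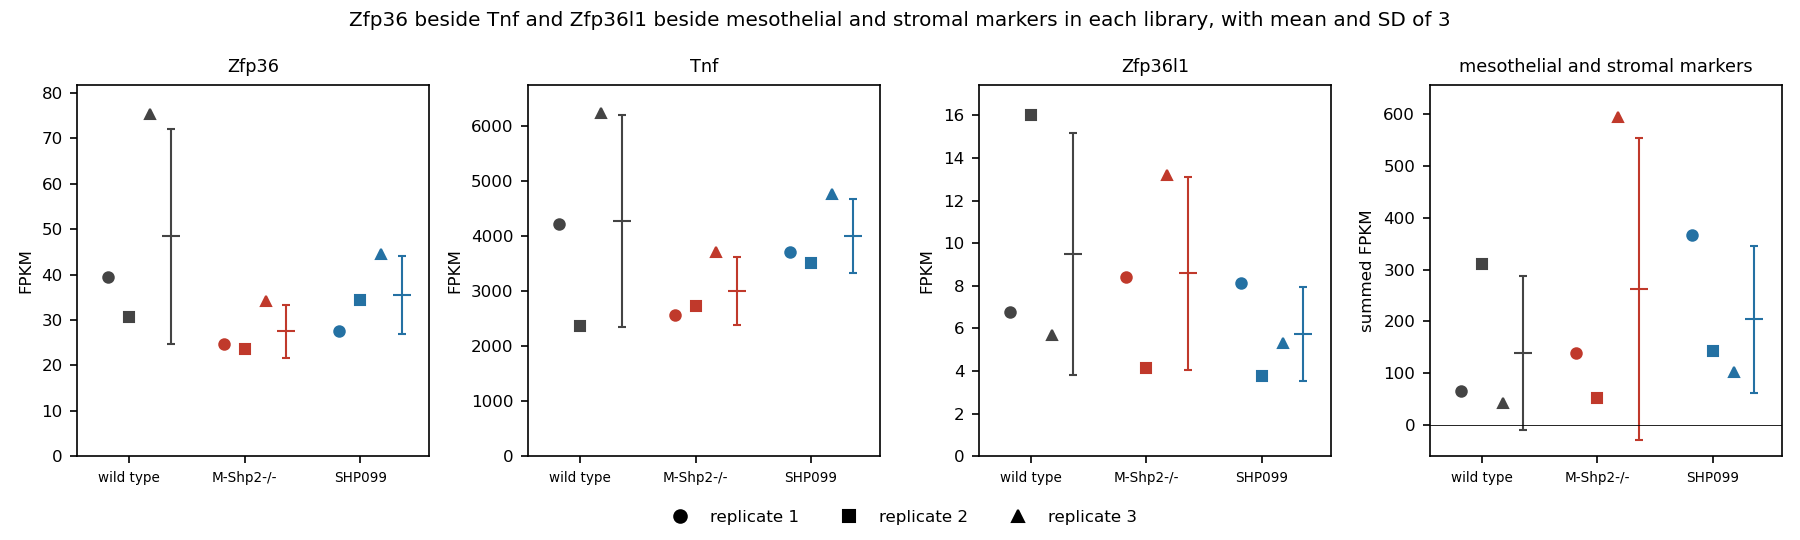
FPKM of Zfp36, Tnf and Zfp36l1 and the summed FPKM of the 10 mesothelial and stromal markers (vertical axes) in each library, with the mean and SD of 3 libraries beside the points. Wild-type replicate 3 is highest for Zfp36 (75.3 FPKM) and Tnf (6247 FPKM), and M-Shp2-/- replicate 3 is highest for the markers (595 FPKM).

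Zfp36l2 was measured at 41.0, 54.5 and 43.6 FPKM in wild-type, at 60.4, 56.1 and 55.7 FPKM in M-Shp2-/- and at 51.2, 47.9 and 54.1 FPKM in SHP099 libraries. The M-Shp2-/- libraries were above all others. Its log2 fold change in M-Shp2-/- cells was 0.31 (95% confidence interval 0.01 to 0.61, adjusted p = 0.467, limma), and 0.15 in SHP099 cells (-0.14 to 0.43, adjusted p = 0.486, limma). The share of Zfp36 in the summed FPKM of the 3 family genes was 45.2%, 30.3% and 60.4% in wild-type, 26.3%, 28.2% and 33.1% in M-Shp2-/- and 31.6%, 39.9% and 42.8% in SHP099 libraries, so that the groups overlapped.

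The roquins, Rc3h1 and Rc3h2, bind stem-loops and bring in the deadenylation machinery. Rc3h1 was at 15.5 to 18.2 FPKM over all 9 libraries, with a highest value 1.17 times the lowest, and its groups overlapped in each comparison. Its log2 fold change was -0.10 in M-Shp2-/- cells (95% confidence interval -0.33 to 0.14) and 0.01 in SHP099 cells (-0.19 to 0.20). Rc3h2 was measured at 11.3, 11.9 and 11.4 FPKM in wild-type, at 12.9, 14.0 and 11.9 FPKM in M-Shp2-/- and at 13.7, 13.6 and 12.4 FPKM in SHP099 libraries. All SHP099 libraries were above the wild-type libraries, with a log2 fold change of 0.18 (95% confidence interval -0.04 to 0.41, adjusted p = 0.260, limma). In M-Shp2-/- cells it was 0.15 (-0.11 to 0.41, adjusted p = 0.559, limma), close to the median of all genes.

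Elavl1 (HuR), Hnrnpd (AUF1, which can speed or slow decay) and Khsrp (KSRP, which promotes decay of AU-rich transcripts) differed little between groups. Elavl1 ranged from 17.0 to 21.8 FPKM, Hnrnpd from 88.9 to 104 FPKM and Khsrp from 24.3 to 33.5 FPKM over the 9 libraries. Wild-type replicate 3 held the lowest Elavl1 and Khsrp values. For Elavl1, the log2 fold change was 0.07 in M-Shp2-/- cells (95% confidence interval -0.21 to 0.36) and -0.05 in SHP099 cells (-0.32 to 0.22). For Hnrnpd, it was 0.00 in M-Shp2-/- cells (-0.23 to 0.24) and -0.03 in SHP099 cells (-0.22 to 0.16). For Khsrp, it was 0.12 in M-Shp2-/- cells (-0.19 to 0.43) and -0.00 in SHP099 cells (-0.29 to 0.28). Exons of Elavl1 overlap those of Ccl25 on the opposite strand, which was listed at 1.85 to 3.59 FPKM, exons of Hnrnpd those of Gm17092 (0.31 to 1.73 FPKM) and exons of Zfp36 those of Gm44710 (0.82 to 1.71 FPKM). Zfp36l1 and Khsrp overlap Gm26669 and Gm17949 in the same way (at most 0.17 and 0.14 FPKM), Zc3h12c overlaps Mir6244, listed at 0, and Zfp36l2 overlaps AC132455.1, whose level was not analysed here. The strand used in counting is not given in the sources used here, so reads of such pairs cannot be told apart.

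M-Shp2-/- and SHP099 cells were also compared directly. In this comparison limma called 0 of the 10 regulators, 1 had an unadjusted p under 0.05, and of all genes 3 were called higher (0.0262%) and 5 lower (0.0437%), with 1437 at an unadjusted p under 0.05. Libraries did not overlap for 1 regulator that was higher in M-Shp2-/- cells, Zfp36l2 (7.9% of all genes), and 1 that was lower, Zc3h12c (9.76% of all genes). Zc3h12c had a log2 fold change of -0.23 (95% confidence interval -0.44 to -0.02, adjusted p = 0.374, limma) and Zc3h12a of 0.21 (-0.04 to 0.47, adjusted p = 0.455, limma). A call in SHP099 cells and none in M-Shp2-/- cells is therefore not shown to be a difference between them. M-Shp2-/- replicate 3 weighed on the count over all genes, which was 1374 higher and 903 lower without it, while limma still called none of the 10 regulators.

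The genes most like both called regulators were taken by Pearson correlation of log2(FPKM + 1) over the 9 libraries, as a description. Zfp658 (0.978), Src (0.975) and Ccnd2 (0.972) were most like Zc3h12a. Src, a tyrosine kinase, was measured at 68.3, 76.7 and 76.9 FPKM in wild-type, at 50.3, 47.8 and 39.9 FPKM in M-Shp2-/- and at 28.9, 29.0 and 37.6 FPKM in SHP099 libraries. Its 3 groups did not overlap. Bmt2 (0.962), Tlr13 (0.958) and Mcur1 (0.955) were most like Zc3h12c. Tlr13, an endosomal sensor of bacterial ribosomal RNA, was measured at 40.7, 34.5 and 47.9 FPKM in wild-type, at 49.6, 55.3 and 57.3 FPKM in M-Shp2-/- and at 50.7, 62.8 and 63.5 FPKM in SHP099 libraries. Wild type was lowest, and the other groups overlapped each other. Zc3h12a and Zc3h12c were each other's most opposed regulator (-0.792), while over all pairs of regulators Zfp36 and Khsrp were the most opposed (-0.847). These libraries share groups and depth, so the values describe them only.

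The machinery that the regulators recruit was described by lists of genes. Limma called none of the 20 deadenylation genes, with Pabpc1 the most abundant (458 to 601 FPKM), and none of the 16 decapping and 5′ decay genes, with Lsm4 the most abundant (61.8 to 87.8 FPKM), in any of the 3 comparisons. Their median log2 fold changes were 0.13 and 0.20 in M-Shp2-/- cells and 0.08 and 0.08 in SHP099 cells, beside 0.15 and 0.13 over all genes. In SHP099 against wild type, alternatives called 0 to 3 deadenylation genes and 0 to 2 decapping genes higher, the most at an adjusted p of 0.1. At that threshold 1255 of all 11450 genes were called higher. The median of the deadenylation list turned below 0 under median-of-ratios scaling in both comparisons with wild type (-0.04 and -0.06), as did that of the decapping list in SHP099 cells (-0.06). Without M-Shp2-/- replicate 3, M-Shp2-/- against SHP099 had 1 deadenylation gene called lower and 1 decapping gene called higher, with 1374 of all 11450 genes called higher and 903 lower. Of the 16 genes of the RNA exosome and 3′ decay, 15 were tested, and the most abundant was Exosc3 (50.4 to 64.3 FPKM). Exosc5, a core subunit of the exosome, was the 1 gene called, in SHP099 against wild type (6.67% of the 15, near the 4.55% of all genes called higher). It was measured at 6.55, 6.76 and 5.08 FPKM in wild-type, at 10.4, 8.66 and 8.80 FPKM in M-Shp2-/- and at 10.6, 10.2 and 9.35 FPKM in SHP099 libraries. Wild type was lowest without overlap. The log2 fold change of Exosc5 in SHP099 cells was 0.64 (adjusted p = 0.0383, limma), and in M-Shp2-/- cells 0.53 (95% confidence interval 0.18 to 0.89, adjusted p = 0.454, limma). The call was lost in some of the 17 alternative fits, among them those without any 1 SHP099 library or without wild-type replicate 1 or 2, with adjusted p by limma between 0.0239 and 0.17 over all 17. The median over the exosome list was 0.27 in M-Shp2-/- cells and 0.17 in SHP099 cells, and 0.11 and 0.04 under median-of-ratios scaling.

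Of 20 cofactors and genes that control the regulators, limma called 2 lower in SHP099 cells (10%, beside 2.41% of all genes) and 0 in the other comparisons, though without M-Shp2-/- replicate 3 it called 1 higher and 3 lower in M-Shp2-/- against SHP099, where 1374 and 903 of all 11450 genes were called. N4bp1 encodes a ribonuclease related to the regnases that, like regnase-1, is cleaved by the protease MALT1. It was measured at 27.3, 28.2 and 28.1 FPKM in wild-type, at 23.7, 23.3 and 18.7 FPKM in M-Shp2-/- and at 19.6, 18 and 18.9 FPKM in SHP099 libraries. Wild type was highest without overlap. N4bp1 had a log2 fold change of -0.54 in SHP099 cells (adjusted p = 0.0192, limma) and of -0.34 in M-Shp2-/- cells (95% confidence interval -0.62 to -0.06, adjusted p = 0.465, limma). Its call in SHP099 cells was lost without any 1 SHP099 library, with adjusted p by limma between 0.012 and 0.114 over 17 alternative fits. Mapkapk3, a kinase below p38 and close to MK2, was measured at 82.6, 81.6 and 90.4 FPKM in wild-type, at 61.4, 61.5 and 63.0 FPKM in M-Shp2-/- and at 63.9, 58.4 and 62.3 FPKM in SHP099 libraries. All wild-type libraries stood above all others, with a log2 fold change of -0.46 in SHP099 cells (adjusted p = 0.0253, limma) and of -0.45 in M-Shp2-/- cells (95% confidence interval -0.64 to -0.25, adjusted p = 0.341, limma). Limma called Mapkapk3 in SHP099 cells in 11 of 17 alternative fits (adjusted p between 0.0141 and 0.133), and not without a filter, without any 1 SHP099 library or without wild-type replicate 1 or 2.

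MK2 itself, which phosphorylates tristetraprolin, is encoded by Mapkapk2, the most abundant gene of that list at 504 to 696 FPKM, and its log2 fold change was 0.04 in M-Shp2-/- cells (95% confidence interval -0.26 to 0.33) and 0.26 in SHP099 cells (0.02 to 0.50, adjusted p = 0.161, limma). The median of the list was 0.02 in M-Shp2-/- cells and 0.04 in SHP099 cells, and -0.16 and -0.10 under median-of-ratios scaling. Of 26 other binders of cytokine mRNA, 19 were tested and limma called none in the 3 comparisons, though without M-Shp2-/- replicate 3 it called 3 higher and 1 lower in M-Shp2-/- against SHP099, beside 1374 and 903 of all 11450 genes. Ybx1 was the most abundant of them (799 to 1177 FPKM). The median log2 fold change of the 19 was 0.09 in M-Shp2-/- cells and 0.06 in SHP099 cells, and -0.09 in both under median-of-ratios scaling, so the signs of both medians are not settled.

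The transcripts on which these regulators act were followed with a list of 30 cytokine and early-response genes, of which 29 were tested. In M-Shp2-/- cells limma called 5 of the 29 lower (17.2%, beside 0.0873% of all genes) and 0 higher, and in SHP099 cells 13 lower (44.8%, beside 2.41%) and 0 higher. Without M-Shp2-/- replicate 1 or 2, or wild-type replicate 1 or 2, 1 was called lower in M-Shp2-/- cells, and 3 without wild-type replicate 3. In SHP099 cells the count was 8, 7 and 8 without SHP099 replicates 1, 2 and 3. These counts also depended on other settings: without a filter on low FPKM, limma called 2 lower in M-Shp2-/- cells and 0 in SHP099 cells, and with all 9 libraries in 1 fit 0 in M-Shp2-/- cells. At the study's thresholds 1 and 0 were called. The median log2 fold change of the 29 was -0.73 in M-Shp2-/- cells and -0.80 in SHP099 cells, beside 0.15 and 0.13 over all genes. In the main fit all 29 log2 fold changes in SHP099 cells were below 0. Among the targets named here, Tnf was above 0 in 4 of 17 alternative fits and Cxcl2 in 1. Il6 was measured at 221, 237 and 258 FPKM in wild-type, at 51.3, 54.1 and 51.3 FPKM in M-Shp2-/- and at 25.9, 18.3 and 58.4 FPKM in SHP099 libraries. Wild type was far above the other groups, which overlapped. Il6, a known substrate of regnase-1, had a log2 fold change of -2.17 in M-Shp2-/- cells (adjusted p = 0.00117, limma) and of -2.93 in SHP099 cells (adjusted p = 0.0129, limma). Its call was lost with all 9 libraries in 1 fit for M-Shp2-/- cells (range over 17 alternatives 0.000757 to 0.082), and without a filter or without SHP099 replicate 1 for SHP099 cells (0.00536 to 0.074).

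Il1b, Il1a and Ptgs2, which encode both forms of interleukin-1 and the prostaglandin synthase COX-2, fell as well. The log2 fold change of Il1b was -2.48 in M-Shp2-/- cells (adjusted p = 0.00781, limma) and -4.25 in SHP099 cells (0.00846). For Il1a it was -1.82 (0.00781) and -3.09 (0.0135), and for Ptgs2 -1.72 (0.0299) and -2.33 (0.0134). The fifth gene called in M-Shp2-/- cells was Csf2 (-1.89, adjusted p = 0.0442, limma), which was named after its values were seen. Limma called Il1b and Il1a in M-Shp2-/- cells in 11 of 17 alternative fits each, Ptgs2 in 6 and Csf2 in 4, with the highest adjusted p at 0.102, 0.143, 0.272 and 0.258. Leaving out M-Shp2-/- replicate 1 or 2, or wild-type replicate 1 or 2, ended each of these 4 calls. In SHP099 cells limma called Il1b and Il1a in 16 of 17 alternatives and Ptgs2 in 14. Tnf had a log2 fold change of -0.42 in M-Shp2-/- cells (95% confidence interval -1.26 to 0.42, adjusted p = 0.587, limma) and of -0.00 in SHP099 cells (-0.79 to 0.78, adjusted p = 0.999, limma). The most abundant target, Cxcl2, a neutrophil-attracting chemokine, was at 2983 to 7742 FPKM and had a log2 fold change of -0.73 in M-Shp2-/- cells (-1.48 to 0.02) and of -0.21 in SHP099 cells (-0.51 to 0.10).

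Fos, an early-response transcription factor, was measured at 9.29, 9.13 and 2.73 FPKM in wild-type, at 6.19, 4.98 and 5.60 FPKM in M-Shp2-/- and at 1.19, 1.17 and 1.32 FPKM in SHP099 libraries. The SHP099 libraries were below all others, and the M-Shp2-/- libraries lay within the wild-type range. Fos was higher in M-Shp2-/- than in SHP099 cells, with a log2 fold change of 1.56 (adjusted p = 0.0163, limma), and was the 1 target of 29 called in that comparison. Limma called this in 8 of 16 alternative fits, with adjusted p between 0.0024 and 0.287, and the losses included the fits without a filter (0.0818), with all 9 libraries in 1 fit (0.287), without M-Shp2-/- replicate 1 or 2 and without any 1 SHP099 library. Against wild type, the log2 fold change of Fos in SHP099 cells was -1.71 (adjusted p = 0.0445, limma), called in 6 of 16 alternatives (0.00394 to 0.175). M-Shp2-/- against SHP099 without M-Shp2-/- replicate 3 had 3 of the 29 called higher and 9 lower, in a fit that called 1374 of all 11450 genes higher and 903 lower.

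Genes with the AU-rich nonamer were also counted. Of the 908 tested genes that held it, limma called 0 higher and 2 lower in M-Shp2-/- cells, and 43 higher and 30 lower in SHP099 cells. The 2 in M-Shp2-/- cells are 0.22%, beside 0.0768% of the tested genes whose 3′ UTR lacked it and 0.0873% of all genes. Both were listed targets, Ptgs2 and Csf2. In SHP099 cells the counts are 4.74% higher and 3.3% lower, beside 4.86% and 2.49% of the tested genes whose 3′ UTR lacked it and 4.55% and 2.41% of all genes, so the shares there lay near the background. Without SHP099 replicate 2 the counts in SHP099 cells were 0 and 4, and without wild-type replicate 3 the count called higher was 69. Their median log2 fold change was 0.13 in M-Shp2-/- cells and 0.13 in SHP099 cells, beside 0.16 and 0.14 over the 9111 tested genes whose 3′ UTR lacked it. Leaving out the listed targets and the regulators, 890 genes were left, with medians of 0.14 and 0.13. Within the listed targets both Tnf, with 5 nonamers, and Il6, with 0, are found, and the pentamer was at a median of 5.80 per kilobase in the 29 targets and 1.35 in all tested genes.

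**Figure D5:**
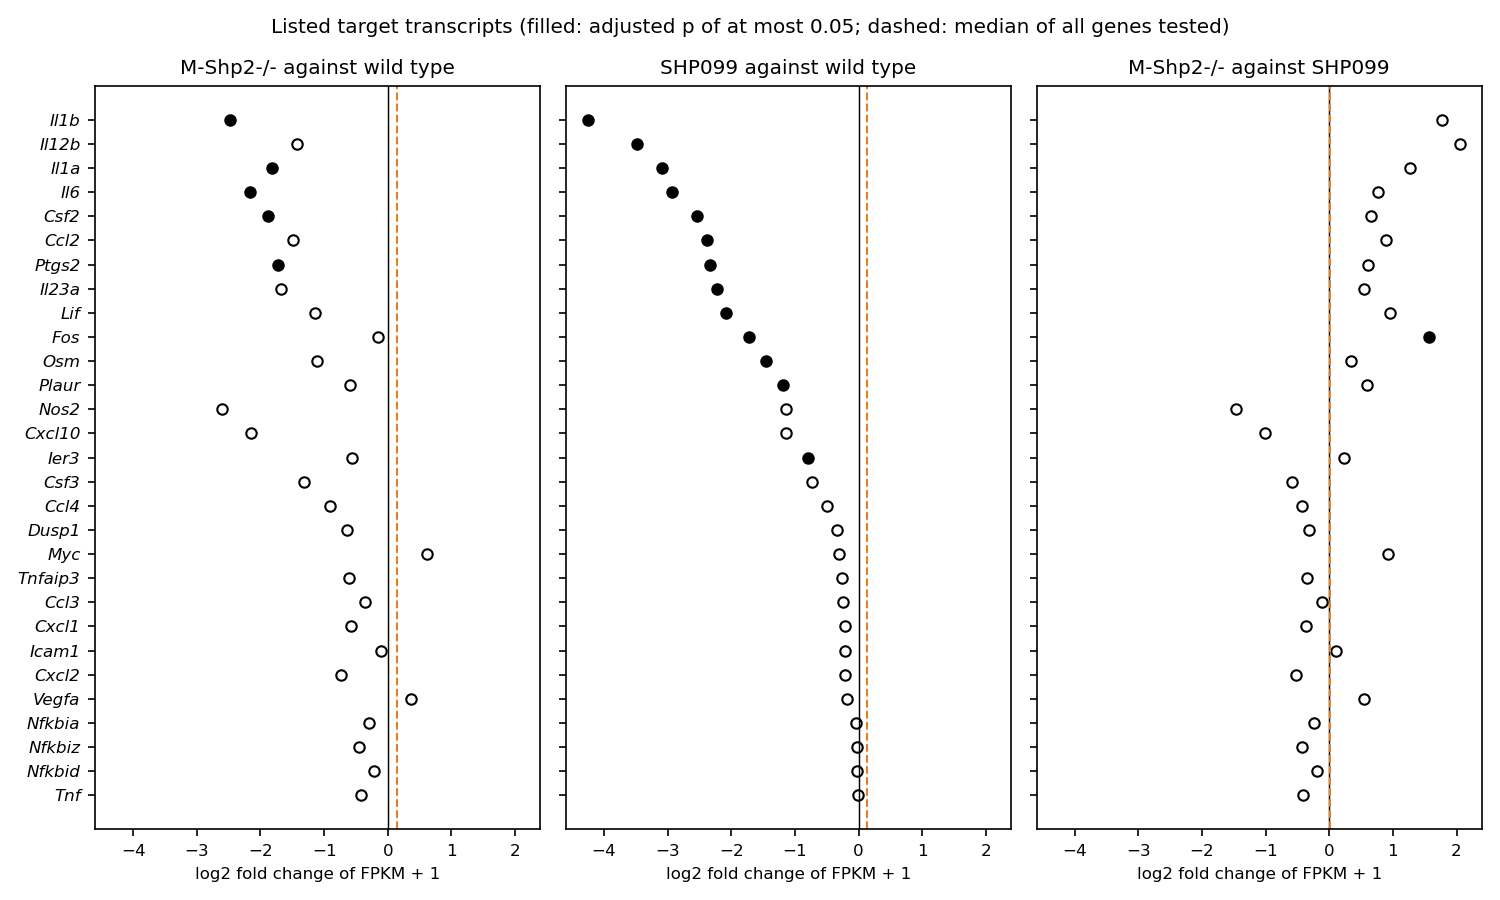
Log2 fold change of FPKM + 1 (horizontal axis) of the 29 tested target transcripts, ordered by SHP099 against wild type, 1 panel per comparison. Filled points mark an adjusted p of at most 0.05 and the dashed line the median of all genes tested. Il1b (-4.25) is lowest and Tnf (-0.00) highest in SHP099 against wild type, where all 29 lie below 0.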

How the data were processed

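For each of 9 libraries the authors deposited FPKM, made from paired-end reads that were aligned by HISAT2 2.0.4 and counted by HTSeq 0.9.1. The tool that made the FPKM, the build and the annotation are not given in the sources used here. Per the file headers, a further table holds gene spans of the authors' assembly and no measurement, and was not used. Gene symbols, positions, lengths and 3′ UTRs came from GENCODE M21 (GRCm38), in which 353 of the 54059 genes were not found. The 3′ UTRs were read from the transcripts of that annotation after the stop codon, since no genome sequence was used here. The sites shown lie in the longest 3′ UTR of a gene, and a gene counted as holding the nonamer if any of its annotated 3′ UTRs did.

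FPKM multiplied by mean transcript length fell on whole reads (tolerance 0.05) in 96.25% to 96.69% of values of up to 50 reads (10% by chance), which gave the depths. Replicates differed by more than counting error, with a chi-square per degree of freedom of 18.3 to 192 between libraries of a group. Comparisons were made on log2(FPKM + 1) with limma 3.58.1 (lmFit, eBayes with trend, two-sided) in R 4.3.3 on the 6 libraries compared. Tables and plots were made in Python 3.11.15 using pandas 2.3.3, numpy 2.4.6 and, for plots, matplotlib 3.10.9.

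The study's methods used DESeq on counts, which was not used here since the values are FPKM, with an adjusted p of 0.005 and a log2 fold change of 1. The looser threshold of 0.05 was used here, and the regulators, the lists and this threshold were chosen with earlier results of these data known, so they are not independent evidence of any direction.

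The genes named are the 10 regulators, Ptpn11, of each list the genes called in any comparison (the 5 with the smallest p where there were more than 5) and its most abundant gene, Tnf and Il6, the 3 genes most correlated with each called regulator, and cell type markers. Ccl25, Gm44710, Gm17092, Gm26669, Gm17949, Mir6244, AC132455.1, Zc3h12b, Zc3h12d and Csf2, and the genes of the closing section outside these lists, were named after their values were seen. Alternatives were pseudocounts of 0.1 and 5, no filter, a mean FPKM of at least 5, quantile normalization, median-of-ratios scaling, equal sums of FPKM, no trend in eBayes, a fit of all 9 libraries, the replicate number as a block, voom on recovered reads, an adjusted p of 0.1, the thresholds of the study, and each replicate left out.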

Additional observations from a re-analysis of the deposited data

How the results depend on the processing

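Of 510 log2 fold changes of the regulators in alternative fits, 496 kept their side of the threshold. The other 14 were the calls of Zc3h12a and Zc3h12c in SHP099 against wild type, and the cause of each loss was not tested. Limma called no regulator in the other comparisons under any alternative run. Of all genes, 0 were called higher in M-Shp2-/- against wild type, but 5 without a filter, 1 with quantile normalization and 1 with all 9 libraries in 1 fit. The 10 called lower became 6 without a filter, 6 without the trend, 6 with all 9 libraries and 1 at the study's thresholds, and 1 to 8 with a replicate left out.

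In SHP099 against wild type, the 1 regulator called higher became 0 without a filter, with median-of-ratios scaling, with quantile normalization, without the trend and at the study's thresholds, and 0 to 1 with a replicate left out. The 1 called lower became 0 without a filter and at the study's thresholds, and 0 to 1 with a replicate left out. Of all genes, the 521 called higher became 34 without a filter, 172 with median-of-ratios scaling, 344 with quantile normalization, 4 at the study's thresholds, 1255 at an adjusted p of 0.1, and 10 to 807 with a replicate left out. The 276 called lower became 40, 15 and 461 without a filter, at the study's thresholds and at 0.1, and 37 to 466 with a replicate left out.

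In M-Shp2-/- against SHP099, the 3 genes called higher became 1 without a filter, 7 at a mean FPKM of at least 5, 5 with median-of-ratios scaling, 0 at the study's thresholds, 10 at 0.1, and 0 to 1374 with a replicate left out. The 5 called lower became 2, 10, 2, 0 and 12 under the same settings, 3 with quantile normalization, 3 without the trend, 1 with all 9 libraries, and 0 to 903 with a replicate left out. Median-of-ratios scaling moved the share called higher among called genes from 37.5% to 71.4%.

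Deviations from the group means were correlated between libraries of 2 groups. Same-numbered libraries gave -0.431 to 0.492 and differently numbered libraries -0.627 to 0.544, so no steady pairing by number was seen. With 3 libraries per group, these values cannot settle whether some same-numbered libraries share more than a number. In the fit with a replicate block, genes called lower in M-Shp2-/- against wild type went to 2, genes called higher in SHP099 against wild type to 338, regulators called higher there to 0, and genes called in M-Shp2-/- against SHP099 to 0 higher and 0 lower. The block left Zc3h12c at an adjusted p of 0.0645 (range over alternatives 0.0267 to 0.197) and Ptpn11 in M-Shp2-/- against wild type at 0.157. It called 2 of the listed targets lower in M-Shp2-/- against wild type, in place of 5. Zfp36l1 spread from 3.76 to 16 FPKM between libraries, so its confidence intervals were wide and small differences were not detectable.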

Other observations

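Some listed genes were measured at or near 0 in these cells. Exosc6, a subunit of the RNA exosome, was listed at 0 in each of the 9 libraries. The other 9 Exosc genes on the list, from Exosc1 to Exosc10, passed the filter. Celf1, a binder of GU-rich elements, was listed at no more than 0.011 FPKM in any library. The related genes Zfp36l3, Elavl2, Elavl3 and Elavl4, which are known from placenta and neurons, were at most 0.0641 FPKM. All of these were named after their values were seen, and how the counting treated each of them was not tested.

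Csf1r and Mrc1 were among the macrophage markers called in SHP099 against wild type. Csf1r, the receptor for macrophage colony-stimulating factor, was measured at 58.2, 67.8 and 111 FPKM in wild-type, at 87.4, 71.8 and 176 FPKM in M-Shp2-/- and at 181, 211 and 206 FPKM in SHP099 libraries, with a log2 fold change of 1.38 in SHP099 cells (adjusted p = 0.0222, limma). That call was lost under median-of-ratios scaling, without a filter and without any 1 SHP099 library (adjusted p between 0.00394 and 0.116 over 17 alternatives).

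Mrc1, the mannose receptor, was measured at 61.5, 43.8 and 43.5 FPKM in wild-type, at 59.8, 71.2 and 19.4 FPKM in M-Shp2-/- and at 10.3, 10.1 and 9.79 FPKM in SHP099 libraries, with a log2 fold change of -2.18 (adjusted p = 0.00289, limma), called in each of 17 alternatives. The M-Shp2-/- library with the lowest Mrc1 was replicate 3, which also had the highest mesothelial and stromal markers. Lyz2, whose locus carries cre in M-Shp2-/- mice, was at 4863, 4743 and 5407 FPKM in M-Shp2-/- libraries, at 7440, 10228 and 7951 FPKM in wild-type libraries and at 9348, 10280 and 10715 FPKM in SHP099 libraries.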
